A study of Homo sapiens with 24 samples.

Results

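Expression of 10 genes of the insulin-like growth factor (IGF) axis was described: the ligand IGF2, the receptors IGF1R and IGF2R, the binding proteins IGFBP2, IGFBP3, IGFBP5 and IGFBP7, and the mRNA-binding proteins IGF2BP1, IGF2BP2 and IGF2BP3. Every probe that the platform annotation names for one of these genes was taken, which found all 10 genes of the 17199 named on the array, with 20 probes. Of the 10 genes, 7 have 2 or more probes. Values are log2 intensities, and the probe of a gene with the highest mean over all arrays is called its lead probe. The others are numbered in order of brightness, and levels are compared between arrays, never between probes.

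The RNA was that of human neuroblastoma cells of 2 established lines, SK-N-AS and IMR-32, the latter with extra copies of the MYCN oncogene. By the labels, cells expressed a HOXC9 transgene or, as the control, GFP, and were sampled at 0 h and then 6, 12, 24, 48 and 96 h. HOXC9 is a homeobox transcription factor. Each of the 4 groups (IMR-32 HOXC9, IMR-32 GFP, SK-N-AS HOXC9 and SK-N-AS GFP) held 6 arrays, 1 at each time, so the hours stand in for replicates. The p-values measure the spread between these arrays, and the fit of HOXC9 against GFP pools this spread over both lines. The labels give neither the vector and promoter of the transgene nor whether the hours are separate cultures, and they do not say whether 0 h precedes expression of the transgene.

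IGF2 and its relative IGF1 signal through IGF1R, a tyrosine kinase receptor that feeds the PI3K-AKT and RAS-MAPK pathways and favours survival and growth. IGF2R, also known as the mannose-6-phosphate receptor, binds IGF2 without a kinase domain and carries it to lysosomes. Secreted binding proteins hold IGFs in the fluid around cells and at the matrix, and the IGF2BPs are cytoplasmic proteins, abundant in fetal tissue and many tumours, that bind IGF2, MYC, ACTB and other mRNAs. IGF2 and IGF1R are well known in neuroblastoma, where the ligand can act on the cells that make it or on neighbouring cells.

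The check of the labels came first. In IMR-32 the HOXC9 probe read 9.86 to 10.34 in the HOXC9 arrays and 5.63 to 6.25 in the GFP arrays, a difference of 4.08 ± 0.14 (SE). SK-N-AS read 11.63 to 11.90 in the arrays labelled HOXC9 and 12.09 to 12.47 in the GFP arrays. That difference of -0.57 ± 0.14 (adjusted p = 0.00985 in the limma fit) goes against the label, so every direction in SK-N-AS below is that of arrays labelled HOXC9. Within SK-N-AS the arrays labelled HOXC9 also fall into 2 sets: those of 6, 12 and 24 h correlate at 0.979 to 0.984 with those of 0, 48 and 96 h, and at 0.995 or above among themselves. For that reason SK-N-AS values are also given without the 6, 12 and 24 h arrays where these decide a call described below. All 8 measured noradrenergic neuroblastoma markers lay above the array median (6.83) in IMR-32, and 6 or 7 of 8 in SK-N-AS. Fibroblast markers lay above it in SK-N-AS (5 of 5, list median 13.82 in the GFP arrays and 14.36 in the arrays labelled HOXC9) and mostly not in IMR-32 (1 of 5). Of 7 markers of mesenchymal neuroblastoma, 5 lay above it in each SK-N-AS group, and 3 (HOXC9) and 4 (GFP) in IMR-32. Of 4 epithelial markers, 2 lay above it in each SK-N-AS group, and 2 (HOXC9) and 3 (GFP) in IMR-32. Endothelial markers lay below it in both lines (0 of 4), as did the leukocyte markers CD3E, CD14 and LYZ, while PTPRC, a leukocyte phosphatase, averaged 12.52 and 12.58 in the SK-N-AS groups. The part of these markers in the results was not tested.

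Promoters of IGFBP2, IGFBP3 and IGFBP5 are printed because their lead probes gave the largest HOXC9 to GFP differences among the lead probes of genes with a promoter sequence at hand, and because IGFBP2 and IGFBP5 are neighbours. They come from RefSeq (GRCh38.p14), with 250 bases before the start and 50 from it on. Capitals mark the homeodomain core TAAT and the cores TTTAT and TTTAC preferred by posterior HOX proteins, each searched on both strands. For IGFBP2 all 3 listed starts are shown, at chr2:216632578-216632877, chr2:216633170-216633469 and chr2:216659317-216659616 on the plus strand. IGFBP5, its next protein-coding gene on chromosome 2, starts at chr2:216695500-216695799 on the minus strand, and IGFBP3 at chr7:45921223-45921522 on the minus strand.
IGFBP2 start 1: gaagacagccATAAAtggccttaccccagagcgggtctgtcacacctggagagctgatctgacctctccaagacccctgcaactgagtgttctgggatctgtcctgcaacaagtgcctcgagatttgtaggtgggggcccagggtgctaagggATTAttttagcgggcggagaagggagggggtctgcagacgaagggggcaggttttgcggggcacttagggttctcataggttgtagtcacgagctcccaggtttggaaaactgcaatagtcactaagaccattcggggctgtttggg
IGFBP2 start 2: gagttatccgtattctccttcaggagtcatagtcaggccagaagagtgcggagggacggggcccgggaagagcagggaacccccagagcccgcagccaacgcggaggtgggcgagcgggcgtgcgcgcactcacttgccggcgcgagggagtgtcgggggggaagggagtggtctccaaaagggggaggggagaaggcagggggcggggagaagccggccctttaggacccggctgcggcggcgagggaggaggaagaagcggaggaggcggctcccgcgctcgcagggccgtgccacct
IGFBP2 start 3: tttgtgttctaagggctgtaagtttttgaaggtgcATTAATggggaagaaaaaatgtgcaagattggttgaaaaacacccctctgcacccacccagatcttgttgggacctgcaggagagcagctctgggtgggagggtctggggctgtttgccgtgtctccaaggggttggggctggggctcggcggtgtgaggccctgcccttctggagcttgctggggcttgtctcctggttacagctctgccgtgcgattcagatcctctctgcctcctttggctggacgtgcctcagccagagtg
IGFBP5: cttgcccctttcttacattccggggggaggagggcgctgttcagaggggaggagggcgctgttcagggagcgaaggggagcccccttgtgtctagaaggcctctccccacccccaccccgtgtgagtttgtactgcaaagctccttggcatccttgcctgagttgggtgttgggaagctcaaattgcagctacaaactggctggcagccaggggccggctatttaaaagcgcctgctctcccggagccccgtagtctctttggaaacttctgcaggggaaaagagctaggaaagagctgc
IGFBP3: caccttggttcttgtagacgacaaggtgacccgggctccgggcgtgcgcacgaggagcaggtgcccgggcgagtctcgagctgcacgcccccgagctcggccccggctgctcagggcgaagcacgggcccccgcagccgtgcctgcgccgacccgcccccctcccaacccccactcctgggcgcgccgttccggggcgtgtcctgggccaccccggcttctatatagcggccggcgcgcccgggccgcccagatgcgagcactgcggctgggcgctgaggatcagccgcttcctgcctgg
The first IGFBP2 window holds 1 TAAT (read as ATTA on this strand, from base -97) and 1 TTTAT (read as ATAAA, from base -240), the third holds 2 overlapping TAAT matches, and the other windows printed hold none of the motifs. Of all 35116 promoter windows of this length, 50.2% hold TAAT, 34.9% TTTAT and 28.1% TTTAC, so a match is common and describes the letters only. Windows were at hand for 7 of the 10 genes.

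In IMR-32, most of the 10 genes were higher in the HOXC9 arrays: IGFBP7 by 5.34-fold, IGFBP5 by 4.19-fold, IGF2BP2 by 2.15-fold and IGF2 by 1.95-fold. IGFBP3 was 4.56-fold lower on its lead probe, which is dim in that line, and did not differ on its probe 2 (-0.029). In SK-N-AS the pattern was another one, with IGFBP2 13.6-fold lower and IGFBP3 5.03-fold higher in the arrays labelled HOXC9. By probe, 11 of 20 were called higher and 1 lower in IMR-32, where 9.78% of all 44708 features were called higher and 13.0% lower at an adjusted p under 0.05. In SK-N-AS, 5 of 20 were called higher and 7 lower, beside 17.0% and 18.3% of all features. The median size of the difference was 0.86 over the 20 probes against 0.27 over all features in IMR-32, and 0.54 against 0.34 in SK-N-AS. The difference between the lines in these effects was called for 15 of 20 probes, with 4 higher in SK-N-AS (19.4% of all features) and 11 lower (16.6%). In RNA of whole cultures, a change in all cells and a change in some of them cannot be told apart.

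**Figure D1:**
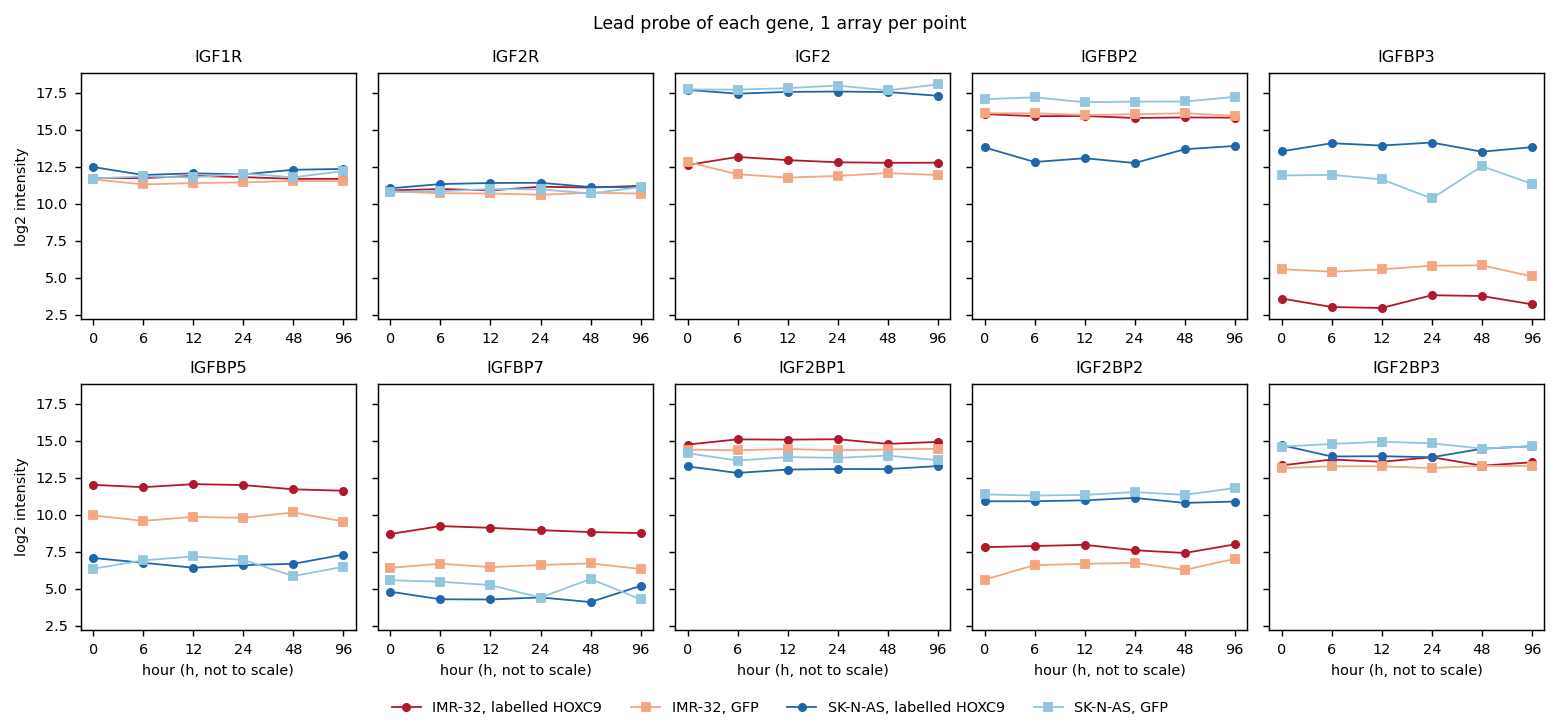
Log2 intensity (vertical axes, 1 common scale) of the lead probe of each of the 10 genes against the hour (horizontal axes, not to scale), 1 array per point, for the 4 groups. IGFBP2 is lowest in SK-N-AS under the HOXC9 label (12.75 to 13.90), and IGFBP5 and IGFBP7 are highest in the IMR-32 HOXC9 arrays.

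IGF2, the ligand, set the lines apart. Its lead probe read 17.65 to 18.05 in the SK-N-AS GFP arrays, median 17.76, where it ranked between 2 and 17 among the 44708 features of each array. In the IMR-32 GFP arrays it read 11.76 to 12.82, median 11.96. The lines differed by 5.74 ± 0.18 (adjusted p = 5.24e-07), or 53.5-fold, and the groups did not overlap. Probe 2 of IGF2, which is dim in IMR-32, gave 6.77 ± 0.35, or 109-fold. Since the lead probe lies near the top of the common distribution of the arrays, whose highest value is 18.24, the size of the fold depends on the probe, and saturation was not tested. The annotation lists the readthrough gene INS-IGF2 beside IGF2, and which of them each probe reads was not tested.

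In IMR-32, IGF2 was higher in the HOXC9 arrays at each hour from 6 h on and not at 0 h. The HOXC9 arrays read 12.61 at 0 h and then 13.16, 12.94, 12.80, 12.76 and 12.77, while the GFP arrays read 12.82 at 0 h and then 11.99, 11.76, 11.87, 12.07 and 11.93. After 0 h every GFP array lay below that line's GFP array of 0 h, every HOXC9 array lay above its own, and the groups did not overlap. The lack of a gap at 0 h rests on the GFP array of that hour, which stood far from the other GFP arrays. The HOXC9 array of 0 h already lay above every later GFP array. From 6 to 96 h the means were 12.88 ± 0.17 (SD, n = 5) and 11.92 ± 0.12, a difference of 0.96 ± 0.11 (adjusted p = 0.000248). Probe 2 differed by 0.90 ± 0.31 (adjusted p = 0.0642), or by 1.02 (adjusted p = 0.00439) without the 48 h arrays, and it too had no gap at 0 h (-0.02).

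In SK-N-AS, IGF2 was lower in the arrays labelled HOXC9, by more on probe 2 than on the lead probe. The lead probe read 17.29 to 17.69 in the arrays labelled HOXC9, median 17.54, and its highest value, that of 0 h, lay within the range of the GFP arrays. Its difference was -0.36 ± 0.11 (adjusted p = 0.0293), and the call ended when the 6, 12, 24 or 96 h arrays were left out, with adjusted p of 0.0712 to 0.111. It also ended without the 6, 12 and 24 h arrays of that line together (adjusted p = 0.192) and with 0 h included (0.161). The same held for SK-N-AS at 0, 48 and 96 h (0.230) and for the arrays of that line fitted alone (0.0941). Probe 2, which lies lower on the scale, read 11.35, 9.36, 9.96, 9.96, 10.95 and 10.20 from 0 to 96 h in the arrays labelled HOXC9 and 11.65, 11.91, 11.91, 12.50, 11.29 and 13.11 in the GFP arrays. That is -2.06 ± 0.31 (adjusted p = 0.000849) over 6 to 96 h, but -0.30 at 0 h and -0.34 at 48 h. With 6, 12 and 24 h left out in SK-N-AS, probe 2 differed by -1.63 (adjusted p = 0.0984). The effect of the transgene label on IGF2 differed between the lines, by -1.32 ± 0.16 on the lead probe (adjusted p = 0.000195) and -2.96 ± 0.44 on probe 2.

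The lead probes of the receptors differed little. IGF1R, read by 4 probes, was bright in all groups on its lead probe, at 11.30 to 11.65 in the IMR-32 GFP arrays and 11.67 to 11.88 in the IMR-32 HOXC9 arrays. The lead probe was higher by 0.31 ± 0.10 in IMR-32 (adjusted p = 0.0417), and the call ended when the 6, 12, 24 or 96 h arrays were left out (adjusted p up to 0.174). The call also ended with 0 h included (0.27, adjusted p = 0.0763). In SK-N-AS the difference of the lead probe was 0.19 ± 0.10 (adjusted p = 0.151), with a 95% interval of -0.02 to 0.41. It was 0.78 at 0 h, and a call was gained with 0 h included (0.29, adjusted p = 0.0498) and at 0, 48 and 96 h (0.48, adjusted p = 0.0375). The 4 probes did not give 1 answer in SK-N-AS. Probe 3 read 8.16 to 8.59 in the arrays labelled HOXC9 and 7.30 to 7.84 in the GFP arrays, with no overlap, and was higher by 0.66 ± 0.12 (adjusted p = 0.00213). Probe 4 was higher by 2.55 ± 0.32 in SK-N-AS and by 1.08 ± 0.32 in IMR-32 (adjusted p = 0.0367), but it is a dim probe whose GFP arrays reach down to 0.63. Its call in IMR-32 ended without the 6, 12, 24 or 48 h arrays (adjusted p of 0.0529 to 0.113), and with 16 units added before the logarithm its differences were 0.92 and 0.18. Probe 2 was not called in either line, at 0.36 ± 0.20 in IMR-32, where it was 0.43 (adjusted p = 0.0176) without the 48 h arrays, and 0.45 ± 0.20 in SK-N-AS, where it was 0.48 (adjusted p = 0.0475) with 0 h included.

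IGF2R, which clears IGF2, was higher by about the same amount in both lines on its lead probe. In IMR-32 it read 10.90 to 11.20 in the HOXC9 arrays and 10.60 to 10.83 in the GFP arrays, which do not overlap, a difference of 0.38 ± 0.09 (adjusted p = 0.0155). The call ended without the 6 h arrays (adjusted p = 0.0536) and without those of 24 h (0.0836). In SK-N-AS, where the groups overlap, the difference was 0.35 ± 0.09 (adjusted p = 0.0150). It was not called without the 6 h arrays (adjusted p = 0.0820), those of 12 h (0.0661) or those of 24 h (0.0706), and it was 0.22 (adjusted p = 0.392) without the 6, 12 and 24 h arrays of that line. Nor was it called with the arrays of that line fitted alone (adjusted p = 0.0783) or at 0, 48 and 96 h (0.197). This effect differed between the lines by -0.03 ± 0.13, with an interval of -0.32 to 0.27. Probe 2 of IGF2R read 17.20 in the IMR-32 GFP array of 6 h and 9.13 to 9.40 in the other GFP arrays of that line. With all arrays probe 2 differed by -0.83 ± 1.03, and without the 6 h arrays it was higher by 0.79 (adjusted p = 0.00349). In SK-N-AS probe 2 differed by 0.39 both with the 6 h arrays (adjusted p = 0.818) and without them (0.0413). With them its SE was the same 1.03 as in IMR-32, because the fit pools the spread of both lines, the array at 17.20 included.

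Of the binding proteins, IGFBP2, a high-affinity carrier of IGFs that is abundant in neural tumours, had the largest difference in SK-N-AS. Its only probe read 12.75 to 13.90 in the arrays labelled HOXC9, median 13.37, and 16.85 to 17.21 in the GFP arrays, median 16.98. The difference of -3.77 ± 0.16 (adjusted p = 1.33e-07) was present at each hour, from -3.22 at 48 h to -4.36 at 6 h, and stood at -3.26 at 0 h. At 48 and 96 h alone it was -3.27, and the ranges of the groups did not overlap. In IMR-32, IGFBP2 read 15.79 to 16.05 in the HOXC9 arrays and 15.93 to 16.11 in the GFP arrays. That difference of -0.18 ± 0.16 (adjusted p = 0.440) has an interval of -0.53 to 0.16, and the difference between the lines was -3.58 ± 0.22 (adjusted p = 2.34e-06).

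IGFBP3, the main carrier of IGFs in blood and a gene often induced by stress and by p53, went opposite ways in the 2 lines on its lead probe. In SK-N-AS its lead probe read 13.51 to 14.13 in the arrays labelled HOXC9 and 10.35 to 12.53 in the GFP arrays, with no overlap. It was higher by 2.33 ± 0.30 (adjusted p = 0.000316), and probe 2 by 2.04 ± 0.28. The hours spread widely, from 0.98 at 48 h to 3.78 at 24 h, and the GFP arrays varied more (SD 0.81, n = 5) than the arrays labelled HOXC9 (SD 0.25, n = 5). In IMR-32 the lead probe read 2.96 to 3.82 in the HOXC9 arrays and 5.09 to 5.84 in the GFP arrays, again with no overlap, a difference of -2.19 ± 0.30 (adjusted p = 0.000779), with -1.98 at 0 h. Both ranges lie below the array median, and with 16 units added before the logarithm the difference was -1.25. Probe 2 did not follow: it read 3.85 to 5.04 in the HOXC9 arrays and 4.47 to 4.95 in the GFP arrays, a difference of -0.029 ± 0.28 (adjusted p = 0.956). The effects differed between the lines on both probes, by 4.52 ± 0.43 and 2.07 ± 0.39. The IGFBP3 window printed above holds none of the 3 motifs.

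IGFBP5, which binds IGFs and the extracellular matrix, was higher in the HOXC9 arrays of IMR-32 on all 3 of its probes. The lead probe read 11.62 to 12.06 in the HOXC9 arrays, median 11.93, and 9.54 to 10.15 in the GFP arrays, median 9.82. It was higher by 2.07 ± 0.23 (adjusted p = 0.000172), and by the same 2.07 at 0 h. Probes 2 and 3 were higher by 1.51 ± 0.18 and 1.07 ± 0.26, the latter not called without the 12 h arrays (adjusted p = 0.0697). IGFBP5 was not called in SK-N-AS on any probe over 6 to 96 h. There the lead probe was at 6.42 to 7.30 in the arrays labelled HOXC9 and 5.85 to 7.18 in the GFP arrays, and its difference was -0.43 over 6, 12 and 24 h but 0.82 over 48 and 96 h. Without the 6, 12 and 24 h arrays of that line the lead probe was called higher (0.82, adjusted p = 0.0285) and probe 3 lower (-1.25, adjusted p = 0.0123), so the probes disagree there. At 0, 48 and 96 h the lead probe and probe 2 were called higher (0.79 and 0.69, adjusted p of 0.00612 and 0.0235) and probe 3 lower (-0.88, adjusted p = 0.0398). The effects differed between the lines by -1.99 ± 0.32 (adjusted p = 0.00125), or by -1.24 with 6, 12 and 24 h left out in SK-N-AS.

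IGFBP7, a secreted matrix protein that binds IGFs weakly, had the largest rise among the 10 genes in IMR-32. Its probe read 8.70 to 9.23 in the HOXC9 arrays, median 8.89, and 6.33 to 6.71 in the GFP arrays, median 6.53. The difference of 2.42 ± 0.30 (adjusted p = 0.000362) was 2.28 at 0 h and at least 2.11 at every later hour. In SK-N-AS it read 4.10 to 5.19 in the arrays labelled HOXC9 and 4.29 to 5.66 in the GFP arrays, which overlap, and the difference was -0.56 ± 0.30 (adjusted p = 0.173). Without the 96 h arrays, where the sign was the opposite (0.91), it was -0.93 (adjusted p = 0.0157), and over the hours left out in turn it ran from -0.31 to -0.93. The effects differed between the lines by -2.98 ± 0.42 (adjusted p = 0.000557).

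**Figure D2:**
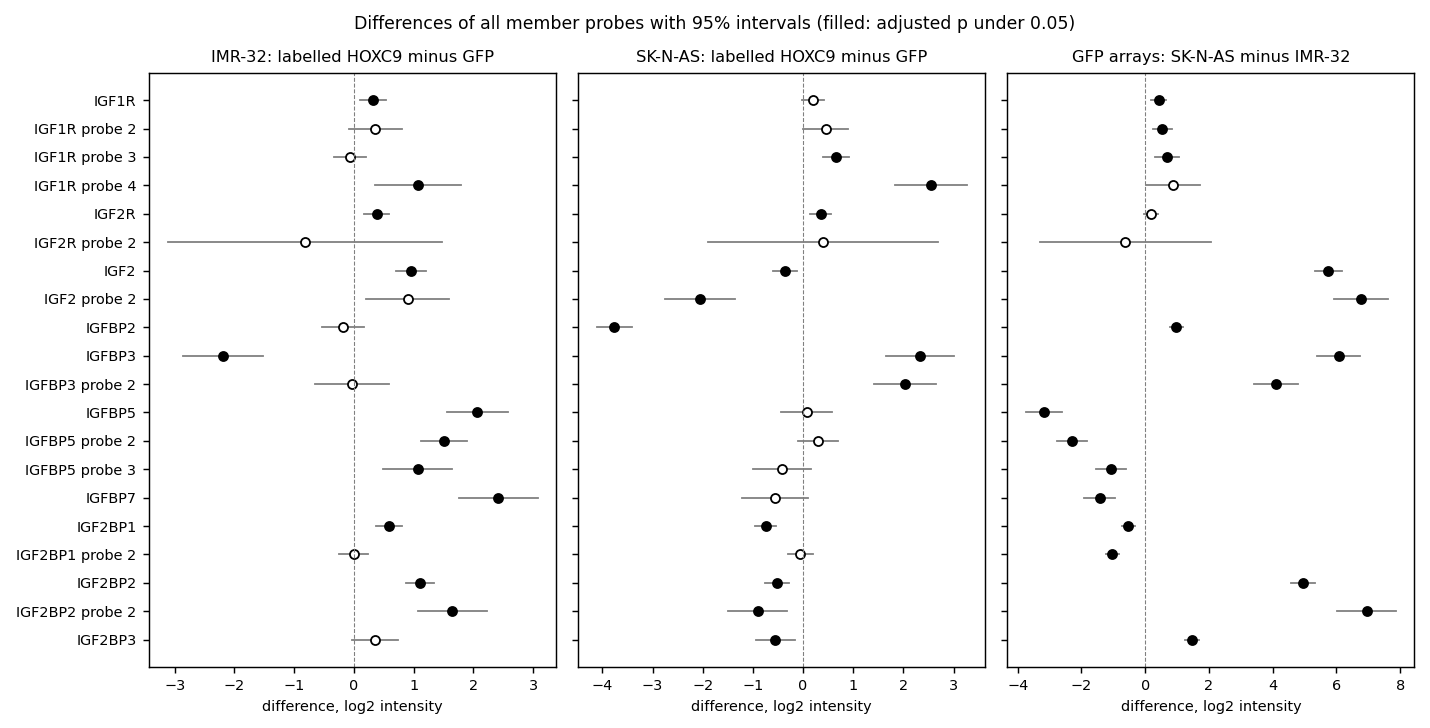
Differences in log2 intensity (horizontal axes) of all 20 probes with 95% intervals from the limma fits, for arrays labelled HOXC9 minus GFP in IMR-32 and SK-N-AS (6 to 96 h) and for the GFP arrays of SK-N-AS minus IMR-32. Filled points have an adjusted p under 0.05, and IGF2R probe 2, with 1 IMR-32 GFP array at 17.20, has the widest intervals.

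Lead probes of IGF2BP1 and IGF2BP2 were higher in IMR-32 and lower in SK-N-AS under the HOXC9 label. IGF2BP1, which stabilises MYC and other mRNAs, read 14.73 to 15.09 in the IMR-32 HOXC9 arrays and 14.34 to 14.45 in the GFP arrays. In SK-N-AS the arrays labelled HOXC9 read 12.82 to 13.28 and the GFP arrays 13.66 to 14.15, so the groups do not overlap in either line. The lead probe was higher by 0.59 ± 0.10 in IMR-32 (adjusted p = 0.00199) and lower by 1.68-fold in SK-N-AS, where the difference was -0.75 ± 0.10 (adjusted p = 0.000319). Probe 2 of IGF2BP1 showed neither difference, at -0.0034 ± 0.11 and -0.059 ± 0.11. The effects of the label differed between the lines by -1.34 ± 0.14 on the lead probe (adjusted p = 7.14e-05) and by -0.055 ± 0.16 on probe 2.

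IGF2BP2, the family member best known from metabolism, read 7.41 to 7.99 in the IMR-32 HOXC9 arrays and 5.62 to 7.02 in the GFP arrays. It was higher by 1.11 ± 0.10 over 6 to 96 h (adjusted p = 6.03e-05) and by 2.19 at 0 h, where the GFP array held the lowest value. In SK-N-AS it read 10.79 to 11.13 in the arrays labelled HOXC9 and 11.29 to 11.80 in the GFP arrays, a difference of -0.52 ± 0.10 (adjusted p = 0.00422). The groups did not overlap in either line on the lead probe. Probe 2 gave 1.65 ± 0.26 and -0.91 ± 0.26 in the same order. At 0 h in IMR-32 the probes disagreed, with -0.34 on probe 2. In IMR-32 probe 2 lay at 0.56 to 0.59 in the GFP arrays after 0 h, at the floor of the data (the 5th percentile of all values is 0.54), and with 16 units added before the logarithm its difference was 0.27 (adjusted p = 0.0638). In SK-N-AS its call ended without the 6 h arrays (adjusted p = 0.0766), those of 24 h (0.0885) or those of 6, 12 and 24 h together (0.329), at 0, 48 and 96 h (0.241) and with 0 h included (0.0563). The lead probe's effect differed between the lines by -1.63 ± 0.15 (adjusted p = 3.25e-05).

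IGF2BP3, a fetal protein that is re-expressed in many tumours, differed in SK-N-AS at the hours of the arrays that stand apart and not at the others. In SK-N-AS its probe read 13.93, 13.95 and 13.87 at 6, 12 and 24 h in the arrays labelled HOXC9, but 14.69, 14.45 and 14.62 at 0, 48 and 96 h. The GFP arrays read 14.47 to 14.93 throughout. The difference of -0.55 ± 0.17 (adjusted p = 0.0310) was -0.92 over 6, 12 and 24 h and -0.0038 without them (adjusted p = 0.997). The call also ended when the 6, 12 or 24 h arrays alone were left out (adjusted p of 0.120 to 0.148), and with the SK-N-AS arrays fitted alone (0.106). In IMR-32 the difference was 0.35 ± 0.17 (adjusted p = 0.178), with an interval of -0.03 to 0.74. Between the lines the effects differed by -0.91 ± 0.24 (adjusted p = 0.0170), and by -0.36 (adjusted p = 0.246) with 6, 12 and 24 h left out in SK-N-AS.

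**Figure D3:**
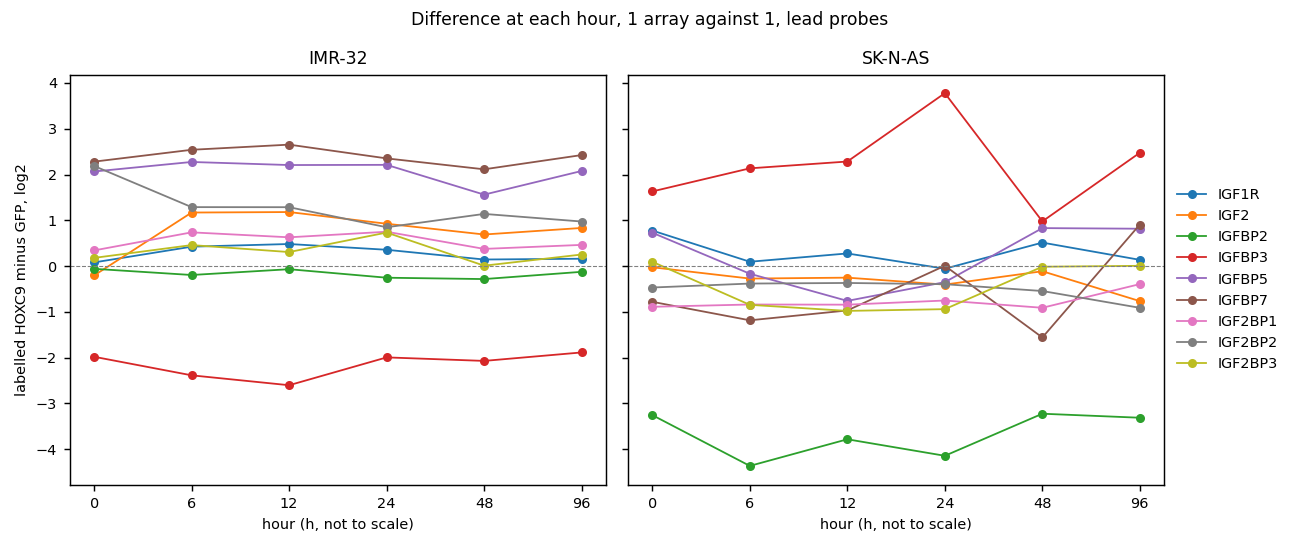
Difference in log2 intensity (vertical axis) between the array labelled HOXC9 and the GFP array of the same hour (horizontal axis, not to scale), 1 array against 1, for the lead probes of 9 of the 10 genes (IGF2R is left out). IGFBP2 stays between -3.22 and -4.36 in SK-N-AS and near 0 in IMR-32, and IGF2 in IMR-32 goes from -0.20 at 0 h to 1.17 at 6 h. For IGF2 the IMR-32 GFP array of 0 h stood far from the later ones, at 12.82 against 11.76 to 12.07.

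Most of these differences were in place at 0 h. In IMR-32 IGFBP3, IGFBP5 and IGFBP7, and in SK-N-AS IGFBP2, IGFBP3 and IGF2BP1, differed at 0 h, 1 array against 1, by 1.98, 2.07, 2.28, 3.26, 1.63 and 0.89 in size, each in the direction seen later. Differences at 0 h were small for IGF2 (IMR-32 at -0.20, SK-N-AS at -0.026), for IGF1R and IGF2R in IMR-32 (0.08 and 0.06) and for IGF2BP3 in SK-N-AS (0.09). That of IGF2 in IMR-32 rests on a GFP array that stood far from the later ones. A trend of the HOXC9 minus GFP difference over the 6 times was called for 0 of 20 probes in IMR-32 (0% of all features) and 0 of 20 in SK-N-AS (0.00447% of all features) by limma. At an unadjusted p under 0.05 these counts were 1 and 2 of 20, near the 3% and 6.35% of all features. These fits have 8 residual degrees of freedom, and a p that misses the threshold does not show that the differences were constant.

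Between the GFP arrays of the lines, 11 of 20 probes were higher in SK-N-AS and 6 lower, where 32.7% and 31.1% of all features were. SK-N-AS had more IGFBP3 (6.07 ± 0.28, or 67.1-fold, on the lead probe, which is dim in IMR-32, and 4.09 ± 0.29, or 17.1-fold, on probe 2), IGF2BP2 (4.95 ± 0.16, or 31.0-fold), IGF2BP3 (1.46 ± 0.09) and IGFBP2 (0.97 ± 0.09), beside the IGF2 described above. IMR-32 had more IGFBP5 (-3.19 ± 0.23, or 9.11-fold), IGFBP7 (-1.43 ± 0.21) and IGF2BP1 (-0.53 ± 0.09), with adjusted p of 3.17e-05, 0.000837 and 0.00173. IGF1R was slightly higher in SK-N-AS (0.42 ± 0.10, adjusted p = 0.0103), and IGF2R was not called (0.19 ± 0.09, adjusted p = 0.112). By mean, both SK-N-AS groups lay above both IMR-32 groups for IGF1R, IGF2, IGFBP3, IGF2BP2 and IGF2BP3, and below them for IGFBP5, IGFBP7 and IGF2BP1. The ranges of the lines overlap for IGF1R and, narrowly, for IGF2BP3, and the order of the IGF2R means mixes the lines. IGFBP2 has both its highest and its lowest group in SK-N-AS, since its arrays labelled HOXC9 lie below both IMR-32 groups.

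Other genes of the axis were counted from 3 lists, by lead probe. The shares beside them are those of all features called given above (for IMR-32 9.78% higher and 13.0% lower, for SK-N-AS 17.0% and 18.3%). These features include probes with no gene symbol. Tested alone, the lead probes of all 17199 named genes gave 4130 calls in IMR-32 (2161 higher) and 7258 in SK-N-AS (3578 higher). Without the 6, 12 and 24 h arrays of SK-N-AS, 6549 of all 44708 features were called in that line, 3193 of them higher. Of 15 other genes of the extracellular axis, 4 were higher and 2 lower in IMR-32, and 5 higher and 2 lower in SK-N-AS (4 and 2 without the 6, 12 and 24 h arrays of that line). Their median absolute difference was 0.45 for IMR-32 and 0.87 for SK-N-AS, against 0.27 and 0.34 over all features. Over 6 to 96 h, the counts of genes called lower lie near the share of all features. STC2, a stanniocalcin that inhibits cleavage of IGFBPs by PAPPA, was higher by 3.66 ± 0.24 in SK-N-AS under the HOXC9 label (adjusted p = 3.04e-06) and lower in IMR-32, at -0.76 ± 0.24 (adjusted p = 0.0445). HTRA1, a protease that cleaves IGFBP5, was 2.30-fold higher in the IMR-32 HOXC9 arrays (adjusted p = 0.000128), beside the higher IGFBP5. IGFBPL1, an IGFBP-like protein of the nervous system, was lower in SK-N-AS, at -1.70 ± 0.10 (adjusted p = 1.50e-06). INSR, the insulin receptor, was lower there, at -1.24 ± 0.22, and differed by -0.50 (adjusted p = 0.132) without the arrays that stand apart. ADAM12, a protease of IGFBP3 and IGFBP5, was higher in both lines, by 0.47 ± 0.14 and 0.87 ± 0.14, the latter 0.46 (adjusted p = 0.0899) without those arrays. PAPPA, the protease that frees IGF from IGFBP4, was higher by 2.87 ± 0.20 in the GFP arrays of SK-N-AS than in those of IMR-32. Its difference in SK-N-AS was -0.59 ± 0.22 (adjusted p = 0.0627), and -1.26 (adjusted p = 0.0170) without those arrays. With SK-N-AS at 0, 48 and 96 h the calls were other ones. There INSR (-0.65, adjusted p = 0.0245) and ADAM12 (0.43, adjusted p = 0.0327) were called, and PAPPA was not (-0.76, adjusted p = 0.124).

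Of 24 measured genes of signalling below IGF1R, 2 were higher and 3 lower in IMR-32, and 7 higher and 4 lower in SK-N-AS (4 and 1 without the 6, 12 and 24 h arrays of that line). Their median absolute difference was 0.25 for IMR-32 and 0.27 for SK-N-AS, against the 0.27 and 0.34 of all features. Over 6 to 96 h, the counts other than that of genes higher in SK-N-AS lie near the share of all features called. GRB10, an adaptor that binds IGF1R and the insulin receptor and dampens their signal, had the largest difference of the list in IMR-32. It averaged 10.26 in the HOXC9 arrays and 6.83 in the GFP arrays, a difference of 3.43 ± 0.09 (adjusted p = 8.19e-09), with 3.24 at 0 h. Its relative GRB14 was higher by 1.01 ± 0.12 in IMR-32 and lower in SK-N-AS, at -0.64 ± 0.12. PIK3R1, a regulatory subunit of PI3K, was higher by 1.51 ± 0.13 in SK-N-AS (adjusted p = 1.82e-05). IRS1, SHC1 and MTOR were called between the lines alone, with SK-N-AS minus IMR-32 differences of -2.00, 2.02 and 1.06 among the GFP arrays.

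Of 20 measured mRNAs and partners of the IGF2BPs, 7 were higher and 1 lower in IMR-32, and 4 higher and 5 lower in SK-N-AS (2 and 4 without the 6, 12 and 24 h arrays of that line). Their median absolute difference was 0.36 and 0.27, and the SK-N-AS counts over 6 to 96 h lie near the share of all features called. LIN28B, an RNA-binding oncoprotein, was higher in IMR-32 by 0.79 ± 0.07 (adjusted p = 5.72e-05) and averaged 0.68 and 0.63, near the floor, in SK-N-AS. HMGA2, a chromatin protein of fetal cells, showed the reverse, with IMR-32 near the floor and a difference of -0.86 ± 0.10 in SK-N-AS (adjusted p = 0.000180). MYC, whose mRNA IGF2BPs protect, was higher by 1.21 ± 0.20 in IMR-32, from a dim 3.48, and differed by 9.40 between the GFP arrays of the lines. MYCN differed by -0.58 ± 0.24 in IMR-32 (adjusted p = 0.107), and by 0.80 ± 0.24 in SK-N-AS, but by 0.03 (adjusted p = 0.963) without the arrays that stand apart. CD44, a hyaluronan receptor and IGF2BP target, was higher by 3.74 ± 0.26 in SK-N-AS from a level of 1.27 near the floor, and MAPT, the microtubule protein tau, by 1.95 ± 0.23.

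**Figure D4:**
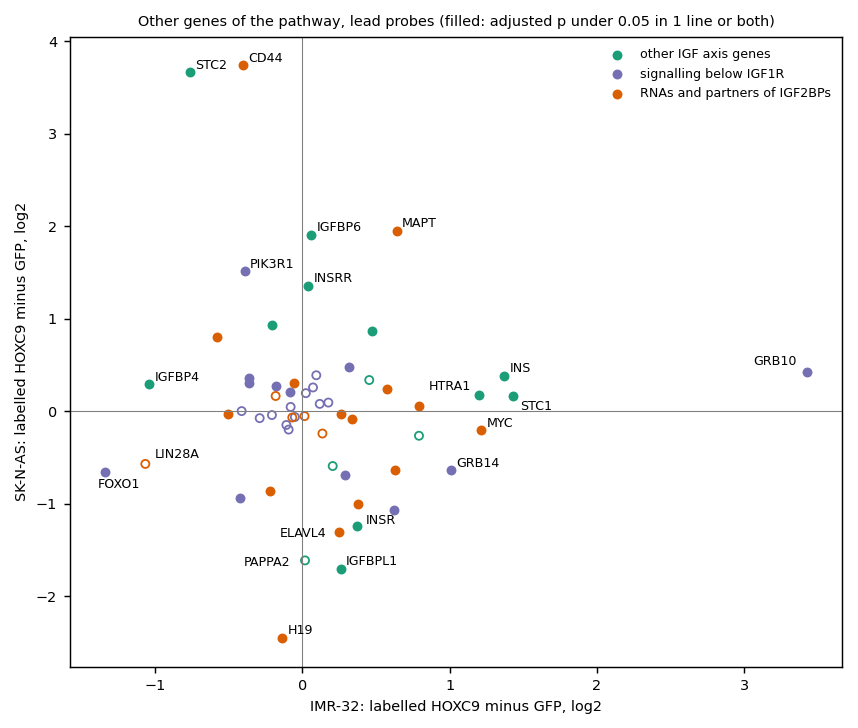
Differences in log2 intensity between arrays labelled HOXC9 and GFP (6 to 96 h) for the lead probes of the 3 lists, IMR-32 on the horizontal and SK-N-AS on the vertical axis. Filled points have an adjusted p under 0.05 in 1 line or both, and GRB10 lies far to the right, at 3.43, with STC2 and CD44 at the top, at 3.66 and 3.74.

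For the 6 genes whose 4 group means span 2 log2 units or more, the genes closest in shape over the 24 arrays were found by the root mean square difference after each probe's own mean was taken off. IGF2 was closest to PCDH7 and ADGRG6 (both 0.28) and PPIC (0.36). IGFBP2 was closest to ADCY1 (0.39), SPECC1 (0.44) and ZFPM2 (0.52), each of which is lowest in the same group, SK-N-AS with the HOXC9 label. The nearest genes were farther from IGFBP3, at 0.85 for LTBR, 0.88 for BCL3 and 0.89 for NTF4. IGFBP5 was closest to BACE2 (0.49), FAT3 (0.49) and DLX4 (0.50), and IGFBP7 to MGARP (0.48), FAT3 (0.58) and KLHDC8A (0.59). IGF2BP2 was closest to COL25A1 (0.32), PTPRM (0.38) and B4GALT6 (0.39). These are the closest of 17199 genes in shape, chosen by that alone.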

How the data were processed

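Total RNA of cultured cells was extracted with TRIzol, amplified, labelled with Cy3 and hybridised to one-colour 44K oligonucleotide arrays, per the labels' protocols. The authors deposited 1 table of linear intensity for 44708 features on 24 arrays. The submitters' processing notes name limma, with no version. The deposited intensities, from 1.32 to 309395 units, share 1 distribution, with a median of 114 units and differences between arrays of no more than 0.0723% at a given rank. Without detection flags, low values may be background. The number of arrays limits the precision.

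Here log2 of the intensity was taken with no offset. Probes were named through the platform annotation: 27942 have 1 gene symbol and 16766 none. Groups came from the labels. HOXC9 was compared with GFP over 20 arrays (6 to 96 h) in 1 limma model with line-by-hour blocks and an effect per line (8 residual degrees of freedom), the GFP arrays between lines over 12 arrays with hour as a block (5), and trends against log2(1 + h/6) over 24 arrays (8). Tests were two-sided and moderated, with Benjamini-Hochberg adjustment over all 44708 features and calls at an adjusted p under 0.05. No test used the 0 h arrays except the trends, the lines' comparison and the alternatives that add them. After removal of group means, arrays sharing line and hour correlated at 0.037 to 0.109 (IMR-32) and -0.052 to 0.140 (SK-N-AS), so the hour was not shown to pair them.

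The 10 genes, the 3 lists and the tests were chosen with earlier results of these data known. Of each list, up to 6 genes with the smallest p in any comparison without a trend are named in the report. The fits were tested on simulated data. Alternatives were another centring, an offset of 16 units, fewer features, other eBayes settings, array weights, no block, leaving out each hour, other hours and each line alone. SK-N-AS at 0, 48 and 96 h was chosen after seeing the data. Software was R 4.3.3, limma 3.58.1, Python 3.11.15, pandas 2.3.3, numpy 2.4.6 and matplotlib 3.10.9.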

Additional observations from a re-analysis of the deposited data

Results flagged for a closer look

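A lone array stood far from the others of its group in 5 of 80 pairs of probe and group, by Dixon's criterion for the gap at an end of the range, which chance meets in about 1 of 20 groups. IGF2R probe 2 read 17.20 in the IMR-32 GFP array of 6 h, against 9.13 to 9.40 in the other 5. IGF2 read 12.82 in the IMR-32 GFP array of 0 h, against 11.76 to 12.07. IGF2BP2 probe 2 read 2.87 in the same array, against 0.56 to 0.59. IGF1R probe 2 read 9.47 in the IMR-32 HOXC9 array of 24 h, against 9.12 to 9.21, and 10.89 in the SK-N-AS array labelled HOXC9 of 48 h, against 9.55 to 9.89.

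The effect of the transgene label differed between the lines (SK-N-AS minus IMR-32, limma interaction) for 15 of 20 probes. It was higher in SK-N-AS for IGFBP3 (4.52), IGFBP3 probe 2 (2.07), IGF1R probe 3 (0.73) and IGF1R probe 4 (1.47). It was lower in SK-N-AS for IGF2 (-1.32) and its probe 2 (-2.96), for IGFBP2 (-3.58), for IGFBP5 (-1.99) with its probes 2 (-1.21) and 3 (-1.48), and for IGFBP7 (-2.98). The lead probes of all 3 IGF2BPs were lower too, IGF2BP1 (-1.34), IGF2BP2 (-1.63) and IGF2BP3 (-0.91), as was IGF2BP2 probe 2 (-2.56). The adjusted p ranged from 2.34e-06 for IGFBP2 to 0.0300 for IGF1R probe 4. Since the HOXC9 probe goes against the labels in SK-N-AS, these are differences between effects of the labels. Without the 6, 12 and 24 h arrays of SK-N-AS, IGFBP5 probe 2 was not called (-0.81, adjusted p = 0.0673). Nor were IGF1R probe 4 (1.56, adjusted p = 0.0731) and IGF2BP3 (-0.36, adjusted p = 0.246). The call of IGF1R probe 4 also ended without the 6, 24, 48 or 96 h arrays (adjusted p of 0.0532 to 0.118).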

How the results depend on the processing

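Of 56 calls of the 20 probes, 42 kept their direction and their call under every alternative run: 7 of 12 in IMR-32, 7 of 12 in SK-N-AS, 11 of 15 for the difference between lines and 17 of 17 between the GFP arrays. The other 14 ended or turned under at least 1, and each lead probe among them is named above with its value. Leaving out 1 hour gave 8 to 12 probes higher and 1 lower in IMR-32 and 4 to 5 higher and 4 to 7 lower in SK-N-AS. It gave 3 to 4 higher and 9 to 11 lower for the difference between lines, 11 to 12 and 6 between the GFP arrays, and 0 for the trends. With features above the median only, which tests fewer probes, 7 were higher in IMR-32, 7 lower for the difference between lines and 3 lower between the GFP arrays. With 6, 12 and 24 h left out in SK-N-AS, and also with SK-N-AS at 0, 48 and 96 h, 4 were lower in SK-N-AS. Over all 44708 features these settings called 6549 (3193 higher) and 10460 (4872 higher) in that line. A single called value turned, that of IGF2BP3 in SK-N-AS at 0, 48 and 96 h (0.029).

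The other sign changes were of values not called as reported, most of them near 0, and the cause was not tested. The exception is IGF2R probe 2, which turned when the 6 h arrays were left out, to 0.79 in IMR-32 (adjusted p = 0.00349) and 0.66 between the GFP arrays (0.00378). With array weights these were, in IMR-32, IGFBP3 probe 2 (0.022) and IGF2BP1 probe 2 (0.0026), in SK-N-AS, IGFBP5 (-0.37) and IGF2BP1 probe 2 (0.082), and between lines, IGF1R probe 2 (-0.11), IGF2R (0.049) and IGF2BP1 probe 2 (0.080). With 0 h included they were IGF2BP1 probe 2 in IMR-32 (0.0011), and IGF1R (0.015) and IGF2R (0.0070) between lines. IGF1R between lines was 0.011 with 6, 12 and 24 h left out in SK-N-AS and 0.16 with SK-N-AS at 0, 48 and 96 h. Over the hours left out in turn, IMR-32 gave IGF1R probe 3 at -0.17 to 0.0031, IGF2R probe 2 at -1.28 to 0.79, IGFBP3 probe 2 at -0.14 to 0.026 and IGF2BP1 probe 2 at -0.047 to 0.069. SK-N-AS gave IGFBP5 at -0.12 to 0.28 and IGF2BP1 probe 2 at -0.12 to 0.030. Between lines, IGF1R probe 2 ran from -0.26 to 0.21, IGF2R from -0.083 to 0.097, IGF2R probe 2 from -0.40 to 1.67 and IGF2BP1 probe 2 from -0.15 to 0.077, and between the GFP arrays IGF2R probe 2 from -0.95 to 0.66.

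Counts over all features moved more. In IMR-32, against 10201 calls as reported, separate fits made 6137, 6114 and 6600 without the 6, 12 or 24 h arrays. They made 17738 with array weights and 15135 with the arrays of that line alone. In SK-N-AS, against 15807, they made 9357, 9458 and 9562 without those hours, 6549 without all 3 in that line, 10460 with it at 0, 48 and 96 h, and 8395 with its arrays alone. For the difference between lines, against 16084, they made 10209, 9996 and 10410 without those hours and 24474 with array weights. The SK-N-AS trend was called for 2225 features without 0 h, against 2. Fewer features tested gave fewer calls (in IMR-32 4130 over lead probes, 6480 over named probes and 4805 above the median). With no replicate block, in place of the pairing of arrays by hour, the counts were 10830, 16054, 16570 and 29490 (28521 with it, between the GFP arrays), and of the calls only that of IGF1R probe 4 ended, in IMR-32 (adjusted p = 0.0698) and between lines (0.0585). Whether the shared hour pairs the cultures was not settled by the same-hour correlations, and arrays, 1 for each time, limit every value.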

Other observations

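Some genes of the 3 lists outside the rule for named genes were called as well; the following were chosen after their values were seen. IGFBP6, a binding protein that prefers IGF2, was higher by 1.91 ± 0.32 in SK-N-AS under the HOXC9 label (adjusted p = 0.00144), and by 3.03 without the 6, 12 and 24 h arrays. IGFBP4 was lower in IMR-32, at -1.04 ± 0.28 (adjusted p = 0.0226), and differed by 0.29 ± 0.28 in SK-N-AS (adjusted p = 0.462), where it was higher by 1.10 (adjusted p = 0.0295) without the 6, 12 and 24 h arrays. H19 is the imprinted noncoding RNA of the same chromosomal domain as IGF2. It was lower in SK-N-AS under the HOXC9 label, at -2.45 ± 0.46 (adjusted p = 0.00281). At 0 h its difference was -0.75, and without the 6, 12 and 24 h arrays it was -3.17 (adjusted p = 0.0402). IGF2 was lower there too, but without those arrays neither its lead probe (adjusted p = 0.192) nor its probe 2 (0.0984) was called. A link between H19 and IGF2 was not tested. In IMR-32, H19 differed by -0.14 ± 0.46 (adjusted p = 0.865). ELAVL4, a neuronal RNA-binding protein, was lower in SK-N-AS, at -1.30 ± 0.10 (adjusted p = 1.10e-05), with -1.32 without those arrays. FOXO1, a transcription factor that IGF signalling holds in the cytoplasm, was lower in IMR-32, at -1.34 ± 0.28 (adjusted p = 0.00706).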
